A study of Mus musculus with 6 samples.

Results

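The genes described here are 10 AP-1 and immediate early genes. Transcription of immediate early genes starts within minutes of a stimulus without new protein being made. Jund is instead constitutive and present in resting cells. The 10 comprise Fos, Fosb and Fosl2 of the FOS family, Jun, Junb and Jund of the JUN family, and Egr1, Atf3, Ier2 and Ier3. They were chosen by name, as rows whose gene symbol equals a member of this list. All 10 were found among 54087 gene rows, and all 10 passed the filter on low counts, which kept 21314 genes.

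RNA came from germ cells of C57BL/6 males aged 10 days post partum, in 6 libraries. The cells of all 6 were sorted by an Id4-GFP reporter, keeping those of bright or medium signal, which every group therefore carries and which the labels equate approximately with spermatogonial stem cells. Of these, 3 were Dnmt3A WT/WT and 3 were Dnmt3A KO/KO, and no treatment was given to either genotype. The labels name no Cre driver and do not say which exons were removed or whether replicates are separate animals, so p-values cover only the spread among these samples, which may be technical.

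FOS and JUN proteins bind DNA as dimers joined by a leucine zipper, and the dimers form the transcription factor AP-1. JUN proteins can pair with each other, whereas FOS proteins need a JUN or another partner. In unstimulated cells most of these genes are weakly transcribed. ERK and other MAP kinases activate serum response factor with its ELK partners, and CREB, at their promoters. In spermatogonial stem cells the niche factors GDNF and FGF2 act through such kinases. The same genes are also known to be induced when tissue is dissociated and cells are sorted.

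Promoter sequences are shown for 4 of the members called higher and for Jun, which was not called. RefSeq (GRCm38.p6, the assembly called mm10) gave a window for 8 of the 10 members, all but Egr1 and Ier2. Each line below starts 120 bases before the RefSeq start site, runs 5′ to 3′ on the strand of the gene, and stops where the gene begins in RefSeq or in GENCODE M21, whichever comes first. Capitals mark TGACG, which is the core of a CREB and ATF site, the Jun element TGACATCA, and TATAAA.
Fos, chr12:85473770-85473889, plus strand: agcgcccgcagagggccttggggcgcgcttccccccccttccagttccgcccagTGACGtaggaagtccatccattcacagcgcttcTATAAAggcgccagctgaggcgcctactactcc
Fosb, chr7:19310052-19310165, minus strand: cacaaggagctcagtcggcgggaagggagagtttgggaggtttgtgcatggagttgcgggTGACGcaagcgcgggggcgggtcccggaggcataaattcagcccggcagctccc
Junb, chr8:84978749-84978868, minus strand: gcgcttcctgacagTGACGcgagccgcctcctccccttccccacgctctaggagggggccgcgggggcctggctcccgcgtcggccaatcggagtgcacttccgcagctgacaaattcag
Ier3, chr17:35821593-35821683, plus strand: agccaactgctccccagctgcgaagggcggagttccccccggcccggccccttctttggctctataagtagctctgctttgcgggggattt
Jun, chr4:95052223-95052342, minus strand: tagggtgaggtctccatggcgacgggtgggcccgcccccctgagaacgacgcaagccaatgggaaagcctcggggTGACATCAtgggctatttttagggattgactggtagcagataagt

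Within the 250 bases before the start, searched on both strands, TGACG was found in 4 of the 8 windows, those of Fos, Fosb, Junb and Atf3. Of 32851 RefSeq promoter windows of the same length, 17.8% hold it. In Fos it lies 66 to 62 bases before the start, in Fosb 60 to 56 and in Junb 106 to 102, and Fos has another farther upstream. In Atf3, which was not called, it lies 7 to 3 bases before the start, on the opposite strand. The window of Ier3, which was called higher, has none. TGACNTCA, where N is any base, was found in Jun alone among the 8, as TGACATCA, and in 7.49% of all windows. The full site TGACGTCA, which contains TGACG and is one form of TGACNTCA, is in 1.55% of all windows, the AP-1 site TGACTCA in 4.46% and the CArG box bound by serum response factor in 1.47%, and none of the 8 member windows holds any of them. These counts describe letters in short windows and say nothing of which factor is bound. Bases farther upstream, and the promoters of Egr1 and Ier2, were not searched, so sites there would have been missed. CpG dinucleotides, the bases that Dnmt3A methylates, numbered 24 in the window of Atf3, 23 in Fosl2, 20 in Junb, 19 in Fosb, 15 in Fos and in Jun, 8 in Ier3 and 3 in Jund, against a median of 6 over all windows. The RefSeq start used for Jund lies 1210 bases before the gene start in GENCODE, so its window is not next to the gene as placed here. Those of Fosl2 and Atf3 lie 671 and 34706 bases inside the GENCODE gene. Methylation itself was not measured in these libraries.

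The data are raw read counts per gene. Libraries held between 49694994 and 72742392 counts, of which KO/KO replicate 3 had the most, and gene rows held between 42681201 and 61749155. Values are given as CPM, gene counts scaled to a common library size with TMM factors. Dnmt3a stood at 215, 193 and 188 CPM for WT/WT against 90.2, 104 and 99.5 for KO/KO, so every KO/KO library lay below every WT/WT library. The KO/KO mean was 0.493 of the WT/WT mean, so transcripts of the gene remained, and a count over the whole gene does not by itself show the genotype. Of 12 marker genes of undifferentiated spermatogonia all were tested, and their summed level was 2451 to 2556 CPM in WT/WT and 2468 to 2809 CPM in KO/KO. Within that sum 4 rose, Id4, Gfra1, Ret and Itga6, and 3 fell, Uchl1, Zbtb16 and Sall4. The shares over all genes tested were 8.33% higher and 6.42% lower. When any 1 of the WT/WT libraries or KO/KO replicate 3 was omitted, 2 markers of this list fell. Id4, the gene whose reporter was used for the sort, stood at 36.9, 38.0 and 38.4 CPM for WT/WT against 86.7, 176 and 159 for KO/KO, the same order of KO/KO libraries as Fos. Gfra1, the GDNF receptor gene, was 2.02-fold higher on average, and Uchl1 stood at 0.543 of its WT/WT mean. The part of this shift in the members' changes was not tested. Sertoli cell markers were also present, at 405 to 620 and 435 to 627 CPM summed over 10 genes. In bulk samples, a change in how many cells express a gene and a change in RNA per cell cannot be told apart.

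In wild-type cells the members covered a wide range of levels. Per kilobase of exon, which allows genes to be compared, Jund was highest at 85.2 ± 6.46 CPM per kb, followed by Egr1, a zinc finger factor, at 28.0 ± 1.29 and Jun at 10.0 ± 2.29 CPM per kb (SD, n = 3). Ier2, a small nuclear protein, stood at 3.97 ± 1.13 CPM per kb and Fos at 2.30 ± 0.222 CPM per kb. Fosl2 (1.60 ± 0.0574), Ier3 (1.39 ± 0.274) and Junb (1.03 ± 0.438 CPM per kb) followed, and Fosb (0.464 ± 0.110) and Atf3 (0.453 ± 0.171 CPM per kb) were lowest. The neighbours Fosl2 and Ier3, Ier3 and Junb, and Fosb and Atf3 overlapped between libraries, whereas each of the other neighbours in this order was separated in all 3 libraries. In KO/KO the first 5 places were held by the same genes in the same order, with Ier2 (7.89 ± 1.85 CPM per kb) and Fos (5.51 ± 1.60 CPM per kb) now overlapping. Fos also overlapped Ier3 (4.56 ± 1.17 CPM per kb), which followed it. Fosl2 moved from the sixth place to the ninth, below Ier3, Junb and Fosb, but the ranges of Fosb and Fosl2 overlapped.

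Loss of Dnmt3A went with higher levels of 5 of the 10 members and a lower level of 1. Fos, Fosb, Junb, Ier2 and Ier3 rose and Jund fell (edgeR quasi-likelihood test, p under 0.05 after Benjamini-Hochberg adjustment over all genes tested), while Fosl2, Jun, Egr1 and Atf3 did not pass. Over all genes tested, 8.33% were called higher and 6.42% lower. The median log2 fold change of the 10 members was 0.76, against 0.00282 over all genes tested. In 6 members every KO/KO library lay above every WT/WT library, which held for 18.2% of all genes tested, and in 1 every KO/KO library lay below, which held for 17.5%. Together 7 of 10 members were separated in this way, against 35.8% of all genes. The members, and the lists described below, were chosen with earlier results of these data known. Their excess over the shares of all genes is therefore not an independent result. Without WT/WT replicate 1 or WT/WT replicate 2, 3 members were called higher, Fos, Fosb and Ier3. The fall of Jund lost its call when any 1 of the WT/WT libraries, KO/KO replicate 2 or KO/KO replicate 3 was left out. Counts over all genes moved as well, to 1083 higher and 652 lower when WT/WT replicate 1 was omitted, 814 and 560 for replicate 2, and 892 and 663 for replicate 3.

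**Figure D1:**
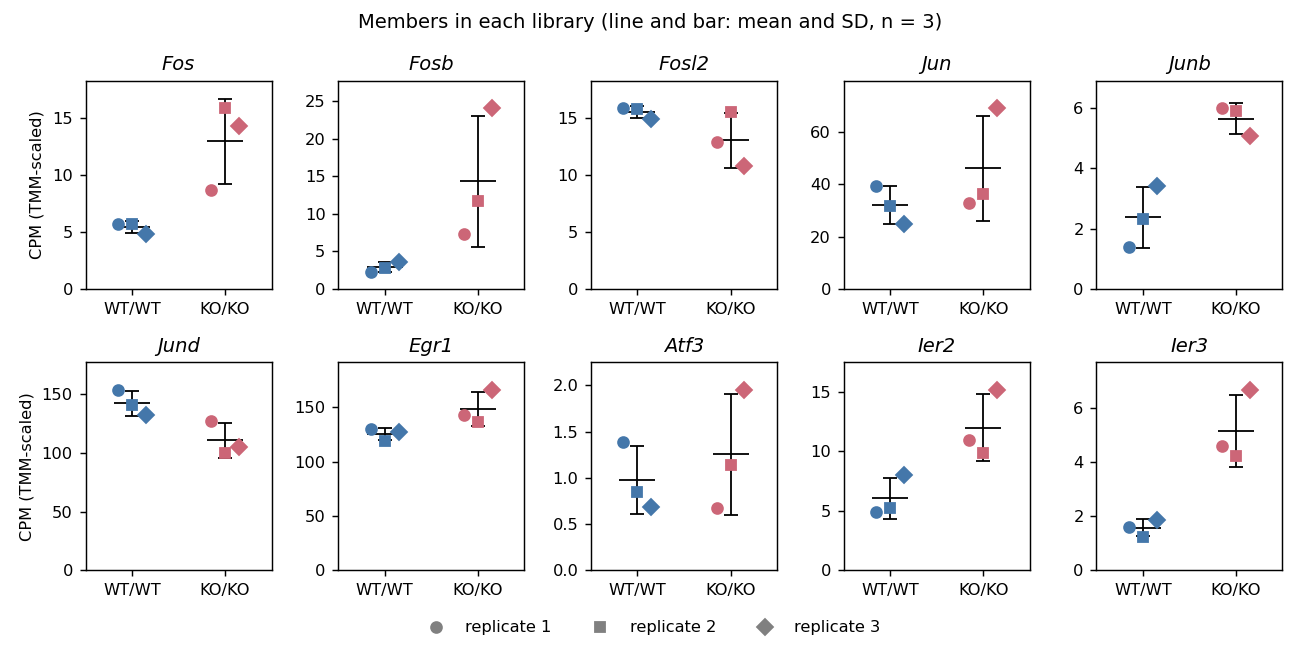
CPM of each of the 10 members (vertical axes, each starting at 0) in the 3 WT/WT and 3 KO/KO libraries, with symbols for replicate numbers and the mean and SD drawn as a line and bar. Fos, Fosb, Junb, Ier2, Ier3 and Egr1 have no overlap between genotypes with KO/KO higher, Jund has none with KO/KO lower, and KO/KO replicate 3 is the highest library for Fosb, Jun, Egr1, Atf3, Ier2 and Ier3.

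Among the FOS family, Fos (ENSMUSG00000021250, chromosome 12, 85473890 to 85477273, GRCm38) encodes the founding FOS subunit. It stood at 5.68, 5.73 and 4.80 CPM for WT/WT against 8.73, 15.9 and 14.3 for KO/KO, from 196 to 276 and 391 to 921 counts. The WT/WT libraries were close together, and KO/KO replicate 1 lay between them and the other KO/KO libraries. The log2 fold change was 1.26 (SE 0.22, 95% interval 0.76 to 1.76, edgeR adjusted p = 0.00565, n = 3 per genotype). Fos kept its call whichever library was left out, with log2 fold changes from 1.09 to 1.49.

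Fosb (chromosome 7, 19302696 to 19310051), a close relative of Fos whose product accumulates on repeated stimulation, gave the largest rise of the 10. Its levels were 2.26, 2.80 and 3.63 CPM for WT/WT against 7.26, 11.7 and 24.0 for KO/KO. The genotypes did not overlap, but the KO/KO libraries differed by 3.31-fold between replicates 1 and 3. edgeR gave a log2 fold change of 2.31 (SE 0.40, 95% interval 1.43 to 3.20, edgeR adjusted p = 0.00493, n = 3 per genotype). Without KO/KO replicate 3 it was 1.73 (edgeR adjusted p = 0.00481), the lowest of the values with 1 library left out.

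Fosl2 (chromosome 5, 32135801 to 32157842), which encodes the FOS-related antigen FRA2, did not share this change. It stood at 15.8, 15.8 and 14.8 CPM for WT/WT against 12.8, 15.5 and 10.7 for KO/KO, and the genotypes overlapped through KO/KO replicate 2. Its log2 fold change was -0.25 (SE 0.15, 95% interval -0.59 to 0.09, edgeR adjusted p = 0.306). This interval lies wholly below those of Fos and Fosb, although the difference between genes was not tested.

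Among the JUN family, Junb (chromosome 8, 84974484 to 84978718), whose product often restrains JUN, was the member that rose. It had 1.39, 2.33 and 3.41 CPM for WT/WT against 5.99, 5.88 and 5.05 for KO/KO, or 61 to 139 and 268 to 326 counts. The spread was wider in WT/WT, at a coefficient of variation of 42.4%, than in KO/KO, at 9.03%. The log2 fold change was 1.25 (SE 0.29, edgeR adjusted p = 0.0205, n = 3 per genotype). Without WT/WT replicate 1 it was 0.97 (edgeR adjusted p = 0.0524) and without WT/WT replicate 2 it was 1.23 (edgeR adjusted p = 0.0877). Of the exon bases of Junb, 7.52% lie under Prdx2 on the opposite strand, which stood at 27.8, 25.8 and 26.5 CPM for WT/WT against 33.1, 26.0 and 38.1 for KO/KO (edgeR adjusted p = 0.216).

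Jun (chromosome 4, 95049034 to 95052222), the most potent activator of the family, stood at 39.5, 31.7 and 24.9 CPM for WT/WT against 33.0, 36.2 and 69.2 for KO/KO. KO/KO replicate 3 was far above the rest, and the other KO/KO libraries fell within the WT/WT range. edgeR gave a log2 fold change of 0.53 (SE 0.27, 95% interval -0.07 to 1.13, edgeR adjusted p = 0.224), and without KO/KO replicate 3 it was 0.13. Jun passed the test only when no filter on low counts was used (edgeR adjusted p = 0.000995). Junos, the antisense RNA of the locus, covers 7.28% of the exon bases of Jun and stood at 1.30, 0.914 and 1.00 CPM for WT/WT against 3.35, 5.03 and 2.43 for KO/KO. Junos rose by 1.74 on the log2 scale (SE 0.32, edgeR adjusted p = 0.00632), and its highest library, KO/KO replicate 2, was not that of Jun. Whether counting used strand is not stated in the sources, so reads of Jun, Junb and Jund cannot be fully told apart from those of genes on the other strand.

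Jund (chromosome 8, 70698949 to 70700616), the constitutive JUN that is present in resting cells, stood at 154, 140 and 132 CPM for WT/WT against 127, 99.6 and 105 for KO/KO. KO/KO replicate 1 lay just under the lowest WT/WT library. The log2 fold change was -0.36 (SE 0.11, 95% interval -0.60 to -0.13, edgeR adjusted p = 0.0473), and the adjusted p was 0.0556 with upper quartile factors. With 1 library left out the edgeR adjusted p ranged from 0.0123 to 0.166, and it passed only without KO/KO replicate 1. Of the exon bases of Jund, 52.6% lie under the predicted gene Gm11175 on the opposite strand. No gene row carries the symbol Gm11175, so its level cannot be given.

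**Figure D2:**
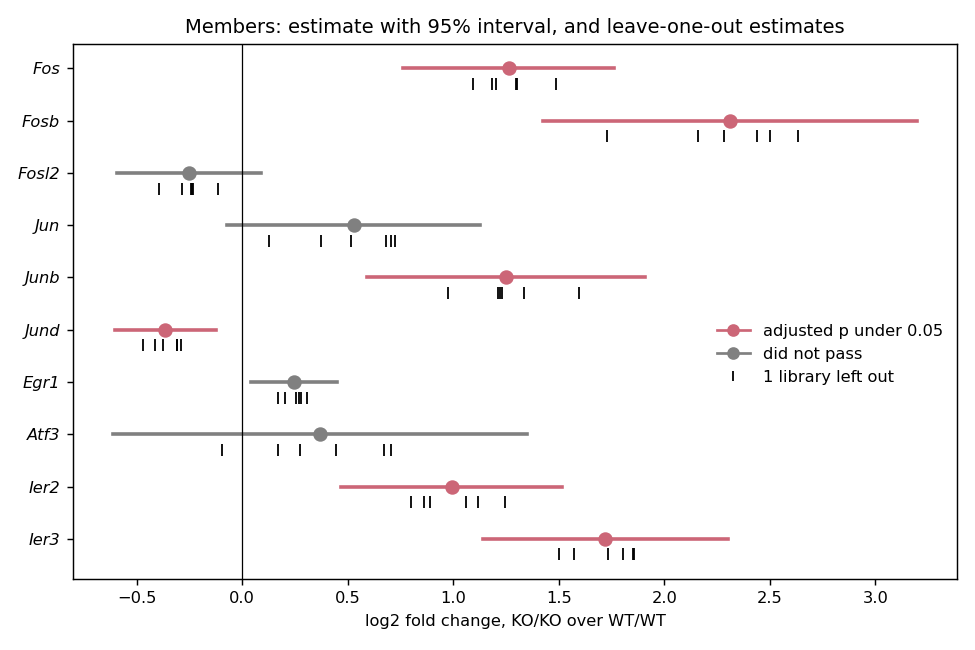
Log2 fold change of each member, KO/KO over WT/WT (horizontal axis), with its 95% interval as a line and the estimates with 1 of the 6 libraries left out as ticks under it. Fos, Fosb, Junb, Ier2 and Ier3 lie above 0 in every estimate, Jund and Fosl2 below 0 in every estimate, and Atf3 is the member whose ticks fall on both sides.

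Because FOS proteins act only in pairs, the levels of the 6 family genes per kilobase were also set beside each other within each library. The FOS family made up 4.03%, 4.53% and 4.48% of the summed level in WT/WT and 6.49%, 12.2% and 11.3% in KO/KO. Jund made up 84.1%, 84.5% and 85.5% in WT/WT and 79.9%, 71.2% and 64.2% in KO/KO. Both shares were separated between genotypes, in opposite directions. They are parts of the same total, so a rise in one lowers the others, and the opposite directions are not separate results. Jun held 8.43% to 11.3% in WT/WT and 10.8%, 13.5% and 22.2% in KO/KO. When Jund was left out because of its overlap, the FOS share was 25.3% to 30.9% in WT/WT and 32.4%, 42.4% and 31.6% in KO/KO, so that 2 KO/KO libraries lay close to the highest WT/WT library. These are shares of transcripts, not of protein or of dimers.

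**Figure D3:**
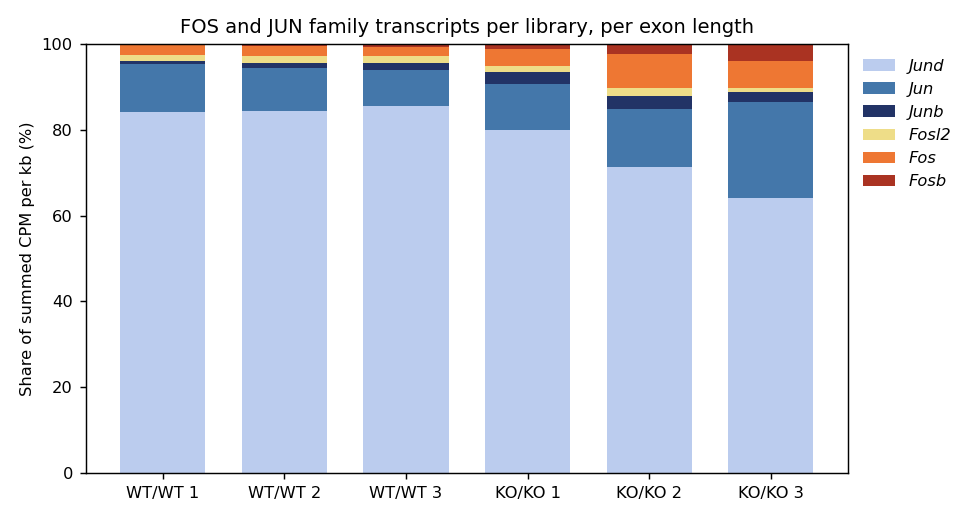
Share of each FOS and JUN family gene in their summed CPM per kilobase of exon (vertical axis, percent), 1 bar per library. Jund holds 84.1% to 85.5% in WT/WT and 64.2% to 79.9% in KO/KO, and the sum of the 3 FOS genes at the top of the bars is larger in every KO/KO library, although Fosl2 alone is not.

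Of the other members, Ier3 (chromosome 17, 35821684 to 35822923), a stress-inducible regulator of cell survival and of ERK, gave the smallest p of the 10. It stood at 1.60, 1.25 and 1.86 CPM for WT/WT against 4.58, 4.22 and 6.67 for KO/KO, or 60 to 76 and 205 to 430 counts. The genotypes were well apart, the lowest KO/KO library being 2.26-fold above the highest WT/WT library. edgeR gave a log2 fold change of 1.72 (SE 0.26, 95% interval 1.14 to 2.30, edgeR adjusted p = 0.00267, n = 3 per genotype), and with 1 library left out it ranged from 1.503 to 1.86 and kept its call each time.

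Ier2 (chromosome 8, 84661331 to 84662852) stood at 4.91, 5.21 and 8.02 CPM for WT/WT against 11.0, 9.85 and 15.2 for KO/KO. WT/WT replicate 3 came near the lowest KO/KO library. Its log2 fold change was 0.99 (SE 0.23, edgeR adjusted p = 0.0205, n = 3 per genotype). The call was lost without WT/WT replicate 1 (edgeR adjusted p = 0.0842), WT/WT replicate 2 (0.101) and KO/KO replicate 3 (0.0503).

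Egr1 (chromosome 18, 34859823 to 34864984), a direct target of ERK signalling, was abundant at 130, 119 and 127 CPM for WT/WT against 143, 137 and 166 for KO/KO. Every KO/KO library was above every WT/WT library, by a small margin. The log2 fold change was 0.25 (SE 0.09, 95% interval 0.04 to 0.45) and did not pass after adjustment (edgeR adjusted p = 0.103). It passed without KO/KO replicate 2 (edgeR adjusted p = 0.0433).

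Atf3 (chromosome 1, 191170296 to 191218039), a stress-induced bZIP repressor, was the least abundant member per kilobase, with 28 to 61 counts in WT/WT and 30 to 126 in KO/KO. Its levels were 1.39, 0.851 and 0.686 CPM for WT/WT against 0.670, 1.13 and 1.95 for KO/KO, and the genotypes overlapped almost fully. edgeR gave a log2 fold change of 0.37 (SE 0.44, 95% interval -0.61 to 1.35, edgeR adjusted p = 0.625), and without KO/KO replicate 3 it was -0.093.

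The members did not move as a block among the KO/KO libraries. KO/KO replicate 3 was the highest of all 6 libraries for 6 members, Fosb, Jun, Egr1, Atf3, Ier2 and Ier3. KO/KO replicate 2 was highest for Fos and KO/KO replicate 1 for Junb, and WT/WT replicate 1 was highest for Jund and Fosl2. Of the members, Ier3 and Ier2 were nearest to Fos in their pattern, with root mean square differences of 0.37 and 0.42 in log2 CPM centred on each gene's mean over the 6 libraries. Many other genes were nearer than any member. Among 11809 genes whose average log2 CPM reached 1, the 5 most like Fos were Rab4a, a GTPase of endosome recycling, the actin-binding gene Ablim1, Jakmip1, the ganglioside enzyme gene St8sia1 and Sec14l1, with differences from 0.068 to 0.099. Rab4a, the nearest, stood at 5.02, 5.65 and 4.76 CPM for WT/WT against 8.42, 16.5 and 14.5 for KO/KO.

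MAP kinase feedback inhibitors, genes that ERK signalling induces and whose products dampen it, were the list of the pathway with the most members called. Of 13 tested, 8 rose and 0 fell in edgeR, with a median log2 fold change of 0.71. Over all genes tested 8.33% rose and 6.42% fell. At an unadjusted p under 0.05 the same counts hold for the list, and DESeq2 also called 8 higher and 0 lower. limma-voom called 7 higher, as did edgeR without KO/KO replicate 2. Without any 1 of the WT/WT replicates 6 of the list rose. Without KO/KO replicate 1, 1 fell, Dusp2, which was chosen for mention after its values were seen. The phosphatase gene Dusp5 stood at 33.9, 35.1 and 35.6 CPM for WT/WT against 70.1, 84.3 and 71.3 for KO/KO (edgeR log2 fold change 1.11, SE 0.10, adjusted p = 0.000252). Spry2, an inhibitor of receptor tyrosine kinase signalling, rose by 2.32 (SE 0.22), Dusp4 by 2.30 (SE 0.28) and Spry1 by 1.10 (SE 0.12) on the log2 scale. Dusp4, at 9.25, 20.6 and 18.1 CPM in KO/KO, had the same order of KO/KO libraries as Fos. Dusp5 had this order too, whereas Spry1 and Spry2 did not. The order also occurred outside this list, in Gfra1, Egr2, Hmox1 and Jdp2, so it is not particular to Fos. Whether genes that share it are regulated together was not tested.

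Upstream of the members, most kinase and transcription factor genes did not pass the test. Of 24 tested, 4 rose and 1 fell, against 8.33% and 6.42% of all genes tested, with a median log2 fold change of -0.053. Those that rose were Mapk9, which encodes the JUN kinase JNK2, from 58.0 ± 3.06 to 84.8 ± 8.21 CPM, Crem, a CREB relative with activator and repressor forms, from 7.92 ± 1.48 to 14.5 ± 2.09 CPM, and the serum response factor partners Elk3, from 1.30 ± 0.596 to 4.35 ± 1.39 CPM, and Elk4, from 82.6 ± 4.79 to 104 ± 6.52 CPM (SD, n = 3 each). Map2k2, a kinase that activates ERK and the gene that fell, was named after its values were seen. When WT/WT replicate 2 was omitted 1 gene of this list rose, Mapk9, and for WT/WT replicate 3 it was 2. When any 1 of the WT/WT libraries was omitted 0 fell.

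A further list held 13 other genes whose products can dimerise with FOS or JUN proteins or share their sites. Of these 2 rose and 0 fell in edgeR, against 8.33% and 6.42% of all genes tested, with a median log2 fold change of 0.00933. At an unadjusted p under 0.05, 3 were higher and 0 lower, and DESeq2 called 3 higher and 0 lower. Jdp2, a repressor that pairs with JUN, stood at 7.78, 8.64 and 7.48 CPM for WT/WT against 10.3, 17.4 and 15.1 for KO/KO (edgeR log2 fold change 0.84, SE 0.20, adjusted p = 0.0196). Batf2 rose from 0, 6 and 6 counts to 34, 91 and 59 counts. Batf3 and Fosl1 had log2 fold changes of 0.91 and 0.40 and did not pass. Without any 1 of the WT/WT replicates 1 of the list rose, Batf2.

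Of 23 further immediate early genes, 2 rose and 3 fell, against 8.33% and 6.42% of all genes tested, and the median log2 fold change was 0.026. The zinc finger gene Egr2, a relative of Egr1, rose from 43.1 ± 2.90 to 73.4 ± 21.8 CPM, with KO/KO replicate 1 at 50.5 and the other KO/KO libraries at 93.9 and 75.9 CPM. Its relative Egr4 fell from 82.5 ± 4.02 to 54.2 ± 8.85 CPM, the orphan nuclear receptor gene Nr4a3 from 1.57 ± 0.301 to 0.531 ± 0.176 CPM, and the serum-inducible kinase gene Sgk1 from 10.2 ± 1.62 to 4.26 ± 0.241 CPM (SD, n = 3 each). The other gene that rose, Zfp36, which promotes decay of immediate early messages, was named after its values were seen. Without any 1 of the WT/WT replicates 0 of the list rose. Within the EGR family, Egr2 and Egr4 thus moved in opposite directions.

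Most of the tested genes known as AP-1 targets in other tissues were not called. Of 17 listed, 14 were tested, 2 rose and 1 fell, with a median log2 fold change of -0.049. Over all genes tested 8.33% rose and 6.42% fell. Mmp3 and Il6 had no counts in any library. The gelatinase gene Mmp9 stood at 13.9, 13.9 and 11.5 CPM for WT/WT against 25.8, 31.3 and 34.1 for KO/KO (edgeR log2 fold change 1.21, SE 0.14, adjusted p = 0.000825). Hmox1, the haem oxygenase gene, rose by 0.64 (SE 0.15), and the hyaluronan receptor gene Cd44 had a log2 fold change of -1.63 (SE 0.40), from 1.28, 0.706 and 0.956 CPM for WT/WT to 0.290, 0.324 and 0.326 for KO/KO. Plaur, the urokinase receptor gene, had a log2 fold change of 1.01 and did not pass. Of this list 1 gene rose without WT/WT replicate 1 or 2, and 0 fell without WT/WT replicate 1 or 3.

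**Figure D4:**
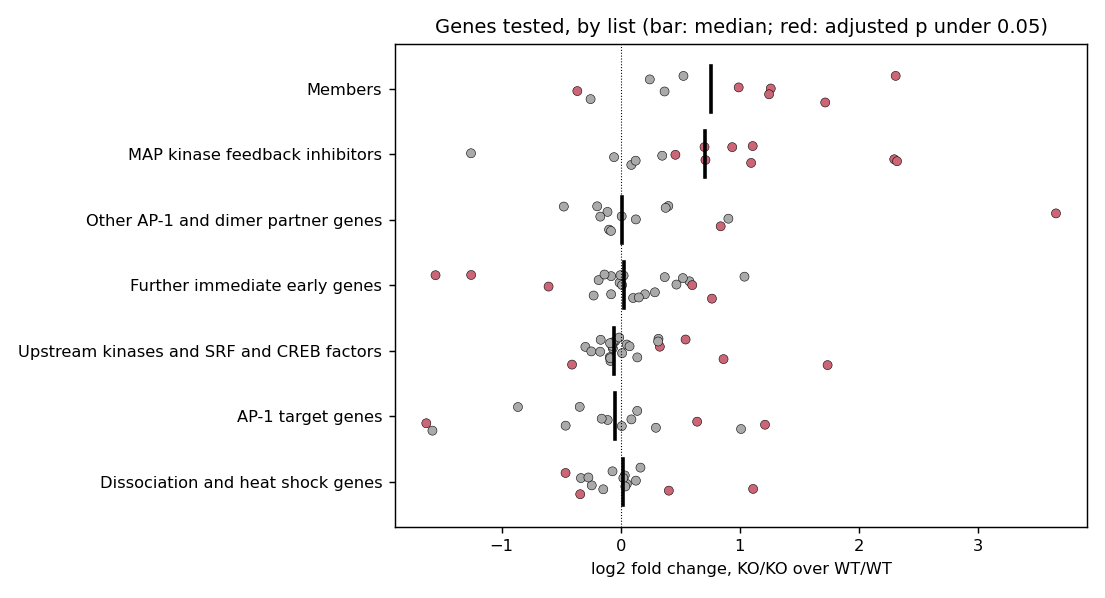
Log2 fold change, KO/KO over WT/WT (horizontal axis), of every tested gene in the members and the 6 lists of the pathway, with called genes in red and the list's median as a bar. The medians of the members (0.76) and of the MAP kinase feedback inhibitors (0.71) lie to the right of 0, and those of the other 5 lists lie between -0.053 and 0.026.

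Sorting stress was looked at through 15 heat shock and chaperone genes, some of which tissue dissociation is known to induce together with immediate early genes. Of the 15, 2 rose and 2 fell, against 8.33% and 6.42% of all genes tested, with a median log2 fold change of 0.023. Not every gene of the list is inducible in this way, so neither the counts nor the median measure sorting stress alone. The co-chaperone gene Bag3 stood at 13.9, 12.9 and 14.6 CPM for WT/WT against 26.0, 36.6 and 27.2 for KO/KO (edgeR log2 fold change 1.11, SE 0.15, adjusted p = 0.00157), and Dnajb1 rose by 0.41 (SE 0.11). The mitochondrial chaperonin gene Hspd1 fell by 0.46 (SE 0.11) and Hsf1, the heat shock factor gene, by 0.34 (SE 0.10). The inducible HSP70 genes Hspa1a and Hspa1b, named after their values were seen, were at 12.3 to 12.6 and 13.3 to 17.5 CPM in WT/WT and 8.59 to 11.0 and 10.8 to 14.8 CPM in KO/KO. The summed level of the list was 6298 to 7329 CPM in WT/WT and 5871 to 6584 CPM in KO/KO. KO/KO replicate 3, where 6 members peaked, had the highest of the KO/KO sums. Most of the sum came from Hspa8, Hsp90aa1 and Hsp90ab1, at WT/WT means of 1990, 1642 and 2103 CPM. These genes too were named after their values were seen. The sum therefore says little of the inducible genes of the list. Of this list 1 gene rose without any 1 of the WT/WT replicates and without KO/KO replicate 3. Without WT/WT replicate 1, KO/KO replicate 1 or KO/KO replicate 2, 1 fell, and 0 fell without WT/WT replicate 2, WT/WT replicate 3 or KO/KO replicate 3. The labels give no times of dissociation or sorting, and the part of sorting stress in the members' changes was not tested.

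Markers of other cell types that the sort could hold moved with some members. For the counts below, the shares over all genes tested were 8.33% higher and 6.42% lower. Of 8 endothelial markers 7 were tested and 4, Cdh5, Kdr, Flt1 and Vwf, rose, and the list summed to 39.8, 40.3 and 33.7 CPM for WT/WT against 120, 159 and 150 for KO/KO, the same order of KO/KO libraries as Fos. Pecam1, a defining endothelial marker, stood at 3.61 ± 1.14 CPM for WT/WT and 4.04 ± 1.08 for KO/KO (SD, n = 3 each) and was not called, and Emcn was at or near 0. Of 6 macrophage and leukocyte markers 3 were tested and Cd68 rose, and the list summed to 1.80 to 2.48 and 4.28 to 5.26 CPM. Its defining markers Adgre1, Csf1r and Lyz2 were at or near 0 in every library. Sertoli markers summed to 620, 514 and 405 CPM for WT/WT against 435, 460 and 627 for KO/KO, so that KO/KO replicate 3 and WT/WT replicate 1 were the highest, as they were for Jun and Atf3. Of the Sertoli list 1 gene rose, Rhox5. Leydig markers summed to 6.58 to 16.0 and 3.57 to 7.24 CPM, stromal markers to 82.6 to 114 and 41.1 to 61.9 CPM, myoid markers to 24.6 to 37.9 and 40.9 to 48.1 CPM, and erythroid markers to 0.478 to 1.42 and 0.491 to 5.57 CPM. Of the Leydig, stromal, myoid and erythroid lists, 3 of 6, 5 of 6, 5 of 6 and 3 of 4 markers were tested. Of these 2 stromal markers fell and 1 myoid and 1 erythroid marker rose. The myoid marker that rose was Smtn, from 18.8 ± 0.204 to 34.9 ± 4.28 CPM (SD, n = 3 each). Each other myoid marker had a lower mean in KO/KO than in WT/WT, so the higher myoid sum came from Smtn. Without WT/WT replicate 1 or 2, 1 stromal marker fell. The erythroid call was lost when any 1 of the WT/WT libraries or KO/KO replicate 3 was omitted, and with DESeq2, limma-voom, the replicate block and the filter at 1 CPM, while 2 erythroid markers rose with no filter. Leydig markers passed, as lower, under some alternatives: 3 with no filter on low counts, 2 with the replicate block, 2 when KO/KO replicate 3 was omitted and 1 when WT/WT replicate 1 was. For the myoid list, 2 markers were lower with no filter, 1 with DESeq2 and 1 when WT/WT replicate 3 was omitted. The part of these cells in the members' changes was not tested.

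**Figure D5:**
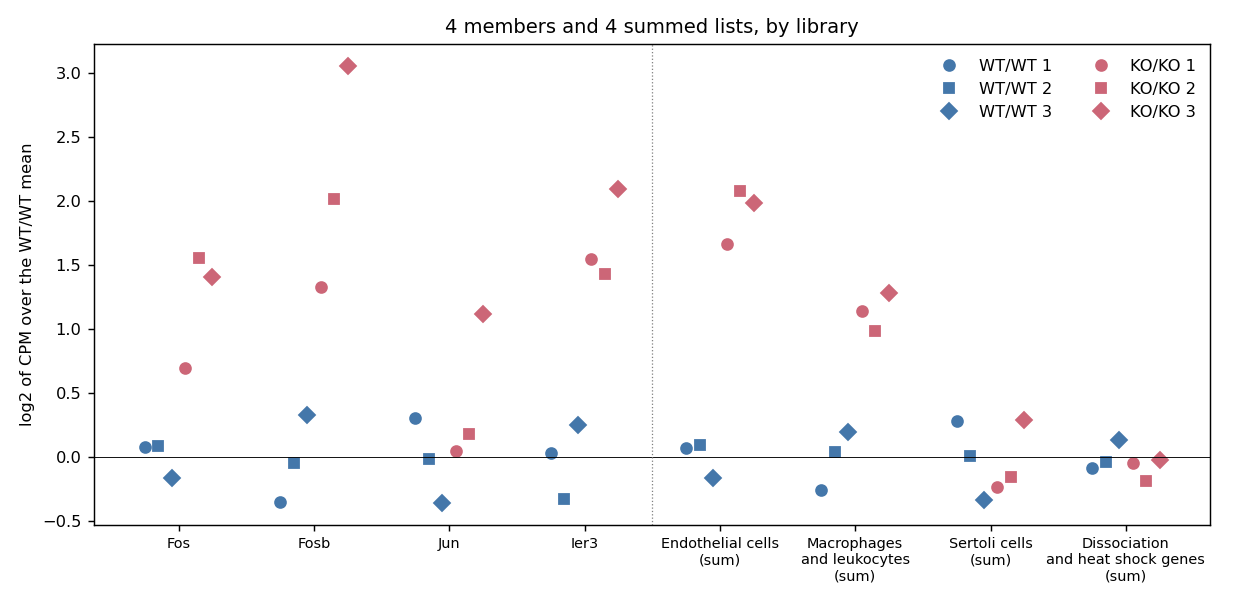
Log2 of CPM over the WT/WT mean (vertical axis) for 4 members and for the summed CPM of 4 gene lists, 1 point per library with colour for genotype and symbol for replicate. Fos, Fosb, Ier3 and the endothelial and macrophage sums are separated between genotypes, whereas Jun, the Sertoli sum and the heat shock sum overlap and Jun and the Sertoli sum share KO/KO replicate 3 as their highest library.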

How the data were processed

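RNA of 6 sorted germ cell samples was isolated (PicoPure), freed of DNA and turned into libraries by the SMARTer stranded total RNA kit, per the labels' protocols. The deposited values are raw counts per gene and per transposable element family. The submitters' processing notes name STAR 2.7.0a, featureCounts 1.5.1 and mm10. The annotation release and the strand setting are not stated in the sources.

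Transposable element rows (14.1% to 15.5% of counts) were left out. Gene counts were fitted in R 4.3.3 with edgeR 4.0.16, by its quasi-likelihood F test, TMM factors, filterByExpr and genotype as the only term, and two-sided p-values were adjusted by Benjamini-Hochberg over all 21314 genes tested, with a threshold of 0.05. A standard error is the size of the log2 fold change over the square root of F. The test was tried on counts simulated from these data, with planted changes larger than those of Jund or Egr1. That trial does not bear on changes as small as theirs. CPM per kb uses the exon length of GENCODE M21 (GRCm38). Likeness to Fos used log2 of CPM plus 0.5.

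The members and lists were chosen with earlier results of these data known. Named genes are the members, Dnmt3a, up to 4 genes of each pathway list with the smallest p, and the 5 genes most like Fos whose average log2 CPM reached 1 (Gm and Rik symbols excepted). Others are said to be named after their values were seen, apart from marker genes and genes that overlap members. The alternatives tried were RLE factors, upper quartile factors, 2 other filters, DESeq2 1.42.0, limma-voom (limma 3.58.1), replicate number as a block, and leaving out each library. Promoter windows came from RefSeq. Figures were drawn with matplotlib 3.10.9.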

Additional observations from a re-analysis of the deposited data

How the results depend on the processing

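Fos, Fosb and Ier3 kept their direction and their call under all 13 alternatives, and Junb and Ier2 under all but the omissions named in the report. Of 130 member values under the alternatives, 116 kept direction and side of the threshold, 11 lost and 2 gained a call, and 1 reversed, Atf3, which ranged from -0.093 without KO/KO replicate 3 to 0.71 without WT/WT replicate 1. With upper quartile factors 0 members were lower. With the filter at 1 CPM in 3 libraries, 1 AP-1 partner gene rose and 0 AP-1 targets fell. With no filter, 4 further immediate early genes rose and 1 MAP kinase feedback inhibitor fell, and with DESeq2 4 further immediate early genes rose. Deviations of same-numbered libraries correlated at -0.13, 0.05 and 0.06, and those of unlike-numbered libraries from -0.24 to 0.22. With 3 libraries per genotype, these values cannot decide whether the numbers pair the samples. With the replicate block, 1467 genes were higher and 1107 lower, 5 members rose and 1 fell, 0 AP-1 targets fell, and 1 heat shock gene rose and 1 fell. The cause of these shifts was not tested.

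With 1 library left out, genes called ranged from 814 to 1985 higher and from 560 to 1380 lower. Members ranged from 3 to 6 higher and from 0 to 1 lower. AP-1 partners ranged from 1 to 3 higher and further immediate early genes from 0 to 3 higher. Upstream genes ranged from 1 to 6 higher and from 0 to 1 lower. Feedback inhibitors ranged from 6 to 8 higher and from 0 to 1 lower. AP-1 targets ranged from 1 to 3 higher and from 0 to 1 lower. Heat shock genes ranged from 1 to 2 higher and from 0 to 1 lower. Scaling moved the median of all genes by less than 0.1 on the log2 scale. Counts were low for some named genes, such as Batf2 and Atf3, at 0 to 6 and 28 to 61 counts in WT/WT.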
